A study of Rattus norvegicus with 93 samples.

Results

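The comparison is between day 3 and day 1 of healing in circular 4 mm holes in the calvaria, the flat bone of the skull roof, of the rat. Its arrays were those whose sample titles name a 4 mm defect at day 3, which are 8 arrays, or at day 1, which are 3 arrays, so 11 of the 93 arrays of the series. All animals were male, of an age given as 12 weeks, and no strain is given. A trephine cut the hole under saline, the bone disc was lifted away with the dura mater left in place, the skin was sutured, and nothing else was done to the defect. A plug of the healing tissue was later cut out with a trephine of the same width, and each sample is the total RNA of 1 defect. The series treats 4 mm as a width below critical size and 8 mm as critical size. The 8 mm defects, with 11 arrays at day 3 and 5 at day 1, are set beside the 4 mm defects where this shows a difference or its absence, and later days of the 4 mm defects are given once near the end.

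A hole in bone first fills with clotted blood. Neutrophils arrive early, drawn by chemokines and by signals such as interleukin 1, and release antimicrobial proteins and proteases. Monocytes follow and become macrophages, which clear dead cells and secrete complement proteins and growth factors. Mesenchymal cells of the periosteum, the dura and the marrow then divide and lay down a loose matrix of collagens, small leucine-rich proteoglycans and glycoproteins, on which osteoblasts later form bone. Collagen chains need hydroxylation, trimming and cross-linking by enzymes before they bear load.

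The values are log2 of the deposited ratios, in which most probes have a median of 1 over the 93 arrays. A log2 value of 0 is therefore a gene's usual value in the series, and the levels of different genes cannot be set against each other. Values have a floor at a ratio of 0.01, or -6.64 on the log2 scale, which held between 10.09% and 10.79% of the values on each of the 11 arrays. Values at the floor have no order. The median log2 value of all genes lay between -0.07 and 0.19 on the day 3 arrays, against -0.74, -0.08 and -0.22 on the day 1 arrays of rats 13, 17 and 18, so the day 1 array of rat 13 stood low as a whole. Precision is bounded by how few arrays there are, 3 of them at day 1. The p-values and SEs rest on the spread within the 14 groups of day and width, pooled over all 93 arrays. They do not measure the spread of the 11 arrays alone. In bulk tissue fewer cells of a type and less RNA per cell cannot be told apart.

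Between day 1 and day 3 the change ran almost wholly upward. Of 15975 genes, 353 (2.21%) passed an adjusted p of 0.05 in limma's moderated test with Benjamini-Hochberg adjustment over all genes. Of these 345 (2.16% of all genes) were higher at day 3 and 8 (0.0501%) were lower. The genes that rose were led by secreted proteins of the extracellular matrix, and those that fell were led by genes of neutrophils and related myeloid cells. All day 3 values lay above all day 1 values for 311 of the 345 genes that rose, and below them for 7 of the 8 that fell. Over all genes the groups were separate in this way for 1486 (9.3%), 8.61% upward and 0.689% downward. On all 11 arrays 287 of the 353 genes were above the floor, 279 of them higher (2.65% of the 10541 genes so measured) and 8 lower (0.0759%). The median change of all genes was 0.33, and it was -0.02 after each array was centred on its median and 0.11 without the day 1 array of rat 13. Centring gave 355 higher and 38 lower genes, so 90.3% of calls were upward, against 97.7% as deposited. Without the day 1 array of rat 13, 129 genes were higher and 13 lower, and 125 of these calls were among the 353. Without the day 1 array of rat 18, 222 were higher and 1 lower.

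**Figure D1:**
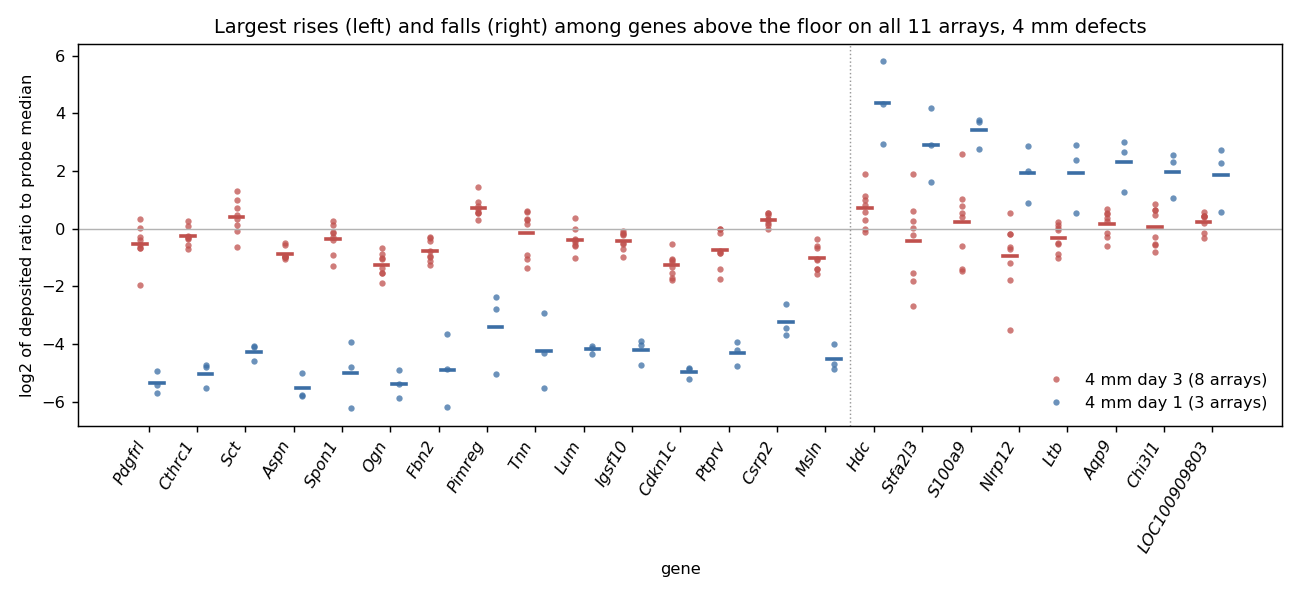
Log2 of the deposited ratio on each array for the 15 genes with the largest rises among genes clear of the floor on each of the 11 arrays (left of the dotted line) and the 8 genes that fell, with the 8 arrays of day 3 left of the 3 arrays of day 1 for each gene and a bar at each mean. All day 3 points lie above all day 1 points for the 15 genes that rose. Of the genes that fell only Stfa2l3 has overlapping groups.

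The largest rises among genes measured above the floor on all 11 arrays were in matrix proteins and proteins bound to matrix. Spon1, which encodes F-spondin, a secreted matrix protein, had values from -1.30 to 0.25 with a median of -0.23 at day 3, against -6.24, -4.81 and -3.94 at day 1. Its change was 4.64 ± 0.47 (SE; adjusted p = 1.06e-11). Cthrc1, a secreted protein made by fibroblasts of injured vessels, had values from -0.72 to 0.27 with a median of -0.30 at day 3, against -4.72, -5.54 and -4.81 at day 1. Both genes thus stood near their usual level of the series at day 3 and far under it on every day 1 array. The change of Cthrc1 was 4.76 ± 0.54 (SE; adjusted p = 5.88e-10).

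Small leucine-rich proteoglycans, which bind collagen fibrils and set their width and spacing, formed the next group. Aspn (asporin) ranged from -1.05 to -0.50 with a median of -0.97 at day 3, against -5.79, -5.0 and -5.78 at day 1. Ogn (osteoglycin) ranged from -1.87 to -0.65 with a median of -1.22 at day 3, against -5.88, -4.90 and -5.39 at day 1. Lum (lumican) ranged from -1.03 to 0.38 with a median of -0.43 at day 3, against -4.06, -4.16 and -4.36 at day 1. In each of these genes the gap between the groups was wider than the spread within either. The changes were 4.65 ± 0.57 for Aspn (SE; adjusted p = 8.69e-09), 4.14 ± 0.47 for Ogn and 3.81 ± 0.59 for Lum. Omd (osteomodulin), a proteoglycan of bone, rose by 3.14 ± 0.78 (SE; adjusted p = 0.0109), with 1 of its day 1 arrays at the floor, and this call ended without the day 1 array of rat 13 (adjusted p = 0.64) and after quantile normalization (0.0706). Ogn, Omd and Aspn lie next to each other in the RefSeq gene order of the GRCr8 assembly, and all 3 rose. The proteoglycan Dcn (decorin), a neighbour of Lum, had a change of 0.12 ± 0.49 (SE; adjusted p = 0.98). Its values ran from -0.24 to 0.59 at day 3 and stood at -0.58, 0.02 and 0.38 at day 1, so the groups overlapped.

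A fibrillin and a tenascin gave further large rises. Fbn2, a fibrillin of elastic microfibrils in growing tissue, ranged from -1.25 to -0.30 with a median of -0.87 at day 3, against -4.87, -3.64 and -6.19 at day 1. Tnn, the tenascin found at sites of bone formation, ranged from -1.35 to 0.61 with a median of 0.23 at day 3, against -4.30, -5.53 and -2.93 at day 1. Their day 1 arrays were spread over a wider range than the day 3 arrays, but did not reach them. The changes were 4.13 ± 0.53 for Fbn2 and 4.09 ± 0.67 for Tnn (SE). Pdgfrl, a protein related to the receptor for platelet-derived growth factor, had the largest change among genes clear of the floor on each of the 11 arrays, 4.81 ± 0.65 (SE; adjusted p = 1.72e-07), with values from -1.96 to 0.33 at day 3, against -5.42, -4.92 and -5.69 at day 1. The calls of these 8 genes, from Spon1 to Pdgfrl with Omd left aside, held without any single array. When values under a ratio of 0.25 were raised to 0.25, which flattens low day 1 values, those of Pdgfrl (adjusted p = 0.118), Aspn (0.243), Ogn (0.407), Fbn2 (0.126) and Tnn (0.0543) ended.

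A further 7 genes completed the 15 with the largest rises among genes clear of the floor on each of the 11 arrays, and they had mixed roles. Some genes with values at the floor, whose changes have no sure size, had larger ones. Sct, which encodes the gut hormone secretin, ranged from -0.63 to 1.32 with a median of 0.41 at day 3, against -4.08, -4.12 and -4.60 at day 1. Its change was 4.68 ± 0.70 (SE; adjusted p = 2.36e-06). Pimreg, a mitotic regulator, changed by 4.12 ± 0.78 and Csrp2, a LIM protein of smooth muscle and other contractile cells, by 3.57 ± 0.65 (SE). These 3 genes stood above or near their usual level on the day 3 arrays. Igsf10, a member of the immunoglobulin superfamily, changed by 3.80 ± 0.52, and Cdkn1c, which encodes the cell cycle inhibitor p57, by 3.70 ± 0.71 (SE). Msln (mesothelin), a surface protein of mesothelium, changed by 3.52 ± 0.53 and Ptprv, a phosphatase of rodent osteoblasts, by 3.58 ± 0.85 (SE). Ptprv lost its call without the day 1 array of rat 13 (adjusted p = 0.0568) or rat 17 (0.0554). With values under 0.25 raised, the calls of Cdkn1c (adjusted p = 0.639), Msln (0.295) and Ptprv (0.242) ended.

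Of the 33 gene lists, collagens and other proteins of wound matrix had the largest share of rises. Of 38 measured genes 16 rose (42.1%) and 0 fell, while 2.16% of all genes rose. The list's median change was 2.03, or 1.70 above the median of all genes, and 37 of the 38 changes were positive. The groups were separate for 27 of them, with day 3 higher each time. Col12a1, a collagen that links fibrils, changed by 4.43 ± 0.60 (SE; adjusted p = 1.72e-07), with 1 day 1 array at the floor, and Mfap2, a protein of microfibrils, by 3.43 ± 0.51. Both calls ended with values under 0.25 raised (adjusted p = 0.0797 and 0.403). Col5a1, a chain of the collagen that starts fibrils, ranged from -0.90 to 0.04 with a median of -0.42 at day 3, against -3.48, -3.81 and -3.65 at day 1. Postn (periostin), a protein of periosteum and wounds, ranged from -1.75 to 0.00 with a median of -0.56 at day 3, against -3.05, -3.33 and -2.80 at day 1. Neither gene had overlapping groups. Postn changed by 2.45 (limma adjusted p = 0.00775), and its call ended without the day 1 array of rat 13 (0.0674). Col5a1 changed by 3.22 (limma adjusted p = 4e-05) and passed without that array (0.00074).

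The 2 chains of type I collagen, the main protein of bone, gave different values. Col1a1 ranged from -0.59 to 0.90 with a median of -0.17 at day 3, against -2.18, -1.87 and -2.84 at day 1, and its change was 2.30 ± 0.46 (SE; adjusted p = 0.000653). Col1a2 ranged from -0.59 to 0.91 with a median of -0.17 at day 3, against 0.42, -0.04 and 0.08 at day 1, a change of -0.15 ± 0.49 (SE; adjusted p = 0.974). On the day 3 arrays the values of both genes were thus nearly the same. In all, 49 genes, Col1a2 included, kept a fixed distance from Col1a2 over the 8 day 3 arrays, with an SD of the distance under 0.01 on the log2 scale. They were mostly genes with abundant RNA, such as Actb, B2m, Tmsb4x and ribosomal proteins, and among matrix genes Col1a1, Col3a1, Sparc and Bgn. Such a fixed distance is what values at 1 upper limit per array would show, but saturation flags were not used here and this was not tested. On the day 1 arrays the SD of the distance from Col1a2 was 0.563 for Col1a1, 0.41 for Col3a1, 0.292 for Sparc and 0.411 for Bgn. Others, such as Rpl41, Rps6, Tmsb4x and S100a4, lay within 0.01 of their median day 3 distance from Col1a2 on 2 of the 3 day 1 arrays. Whether Col1a2 stood at such a limit at day 1 as well was not tested. Its change of -0.15 therefore does not show an unchanged level. The changes of Col3a1 (0.60 ± 0.44), Sparc (1.03 ± 0.43) and Bgn (1.10 ± 0.42) did not pass (SE; adjusted p = 0.718, 0.298 and 0.213). Of the 49 genes 1 passed, Col1a1. Fn1 (fibronectin), which was not among them, changed by 0.41 ± 0.53 and Tnc (tenascin-C) by 2.30 ± 0.70 (SE; adjusted p = 0.891 and 0.0656). After quantile normalization Tnc passed (adjusted p = 0.012).

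Enzymes that process and cross-link collagen moved with the collagens. Of 20 measured genes 8 rose (40%) and 0 fell, all 20 changes were positive, and the median was 1.93, or 1.60 above that of all genes. The groups were separate for 18 of them. Pcolce, which speeds the trimming of procollagen, ranged from -0.13 to 0.72 with a median of 0.26 at day 3, against -2.23, -2.04 and -2.33 at day 1. Adamts2, the protease that removes the amino-terminal propeptide, ranged from -0.54 to 0.13 with a median of -0.22 at day 3, against -2.99, -2.89 and -2.90 at day 1. Loxl2, a lysyl oxidase that cross-links collagen, ranged from -0.19 to 0.28 with a median of -0.05 at day 3, against -2.51, -2.43 and -2.78 at day 1. The changes were 2.47 ± 0.45 for Pcolce, 2.73 ± 0.47 for Adamts2 and 2.59 ± 0.53 for Loxl2 (SE; adjusted p = 0.000143, 5.17e-05 and 0.000899), and the day 1 arrays of these genes lay close together. Loxl1 rose by 2.46 ± 0.51, Loxl3 by 2.44 ± 0.58 and Crtap, part of the complex that hydroxylates procollagen, by 2.09 ± 0.48 (SE). These last 3 calls ended without the day 1 array of rat 13 (adjusted p = 0.0666, 0.115 and 0.145), and the list then held 3 calls. With the mean of all its probes Adamts2 had an adjusted p of 0.0511. Lox itself changed by 1.38 ± 0.47 (SE; adjusted p = 0.131).

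Markers of fibroblasts and their progenitors rose in 5 of 16 genes (31.2%), with a median of 0.79 and 0 falls. After centring 1 fell, Nt5e, an enzyme that makes adenosine and a marker of mesenchymal cells, with -1.73 (adjusted p = 0.00151), against -1.38 as deposited (0.191). Thy1, a surface marker of mesenchymal cells, ranged from -0.33 to 0.54 with a median of -0.10 at day 3, against -6.64, -1.75 and -4.19 at day 1, with rat 13 at the floor. Its change was 4.19 ± 0.69 (SE; adjusted p = 2.24e-05). Fap, a serine protease of activated fibroblasts, rose by 2.87 ± 0.58 and Itm2a, a membrane protein of early skeletal precursors, by 2.86 ± 0.57 (SE). Dpt (dermatopontin), a matrix protein of skin fibroblasts, rose by 2.87 ± 0.72 (SE). Without the day 1 array of rat 13 the adjusted p was 0.0821 for Itm2a and 0.306 for Dpt, and the list then held 3 calls. Itm2a had an adjusted p of 0.197 after quantile normalization, and Fap one of 0.0539 with values under 0.25 raised. Among 23 matrix proteases and inhibitors 2 rose and 0 fell, and the median was 0.46. Mmp23 changed by 2.93 ± 0.51 (SE; adjusted p = 8.71e-05), ranging from -0.02 to 0.81 at day 3, against -2.72, -2.41 and -2.59 at day 1. Mmp14, the membrane protease that activates other matrix proteases, changed by 1.62 ± 0.43 (SE; adjusted p = 0.0223) but had an adjusted p of 0.292 without the day 1 array of rat 13 and 0.0743 without that of rat 18.

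Genes named for bone formation rose in 6 of 22 cases (27.3%) with 0 falls, and the median was 0.92. Besides Tnn and Omd they were Enpp1, the enzyme that makes pyrophosphate, Kazald1, a secreted protein of the insulin-like growth factor binding type, Pth1r, the receptor for parathyroid hormone, and Ibsp, the bone sialoprotein. Enpp1 ranged from -0.43 to 1.82 with a median of 0.81 at day 3, against -2.32, -3.07 and -1.36 at day 1, and changed by 3.00 ± 0.51 (SE; adjusted p = 5.21e-05). Kazald1 changed by 3.44 ± 0.55 (SE; adjusted p = 1.48e-05), and its adjusted p was 0.105 with values under 0.25 raised. The calls of Ibsp and Pth1r were close to the threshold (adjusted p = 0.0494 and 0.0387). They ended without the day 1 array of rat 13 (0.176 and 0.229), rat 17 (0.147 and 0.098) or rat 18 (0.202 and 0.142). Ibsp was at the floor on 1 day 3 array and 2 day 1 arrays.

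The transcription factors that define osteoblasts and the late marker osteocalcin did not pass. Runx2, the factor that commits cells to bone, changed by 3.96 ± 1.54 (SE; adjusted p = 0.231), with 2 day 1 arrays at the floor and the third at -0.99, inside the day 3 range of -2.54 to 0.66. Sp7, which acts after Runx2, had 1 array at the floor in each group and changed by 0.88 ± 2.09 (SE). Bglap (osteocalcin) ranged from -3.36 to 0.14 at day 3 and stood at -1.04, -1.25 and 0.23 at day 1, a change of -1.13 ± 1.24 (SE; adjusted p = 0.861). Spp1 (osteopontin) changed by -0.22 ± 0.54 (SE). Bglap and Spp1 were above the floor on all 11 arrays of the labelled tissue, calvarial bone with its healing plug.

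Of 12 osteoclast genes 1 rose, Ctsk (cathepsin K), the protease that digests bone collagen, which changed by 2.73 ± 0.51 (SE; adjusted p = 0.000242, and 0.075 with values under 0.25 raised). The osteoclast list's median of 0.41 turned to -0.07 after quantile normalization. Of 17 cartilage genes 1 rose, Acan (aggrecan), whose groups overlapped and whose call ended without the day 1 array of rat 13 (adjusted p = 0.107) or rat 17 (0.438). Of 13 genes of smooth muscle and pericytes 1 rose, Tagln (transgelin), by 2.24 ± 0.55 (SE; adjusted p = 0.0098), and its call ended without the day 1 array of rat 13 (0.107) or rat 18 (0.0824). None of 22 genes of endothelium and angiogenesis passed in limma, their median was 0.67, and 6 were higher at an unadjusted p under 0.05. List counts at an unadjusted p, here and below, are given without the share of all genes at that threshold. Pecam1, a junction protein of endothelium, changed by 0.63 ± 0.66 (SE; adjusted p = 0.848).

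**Figure D2:**
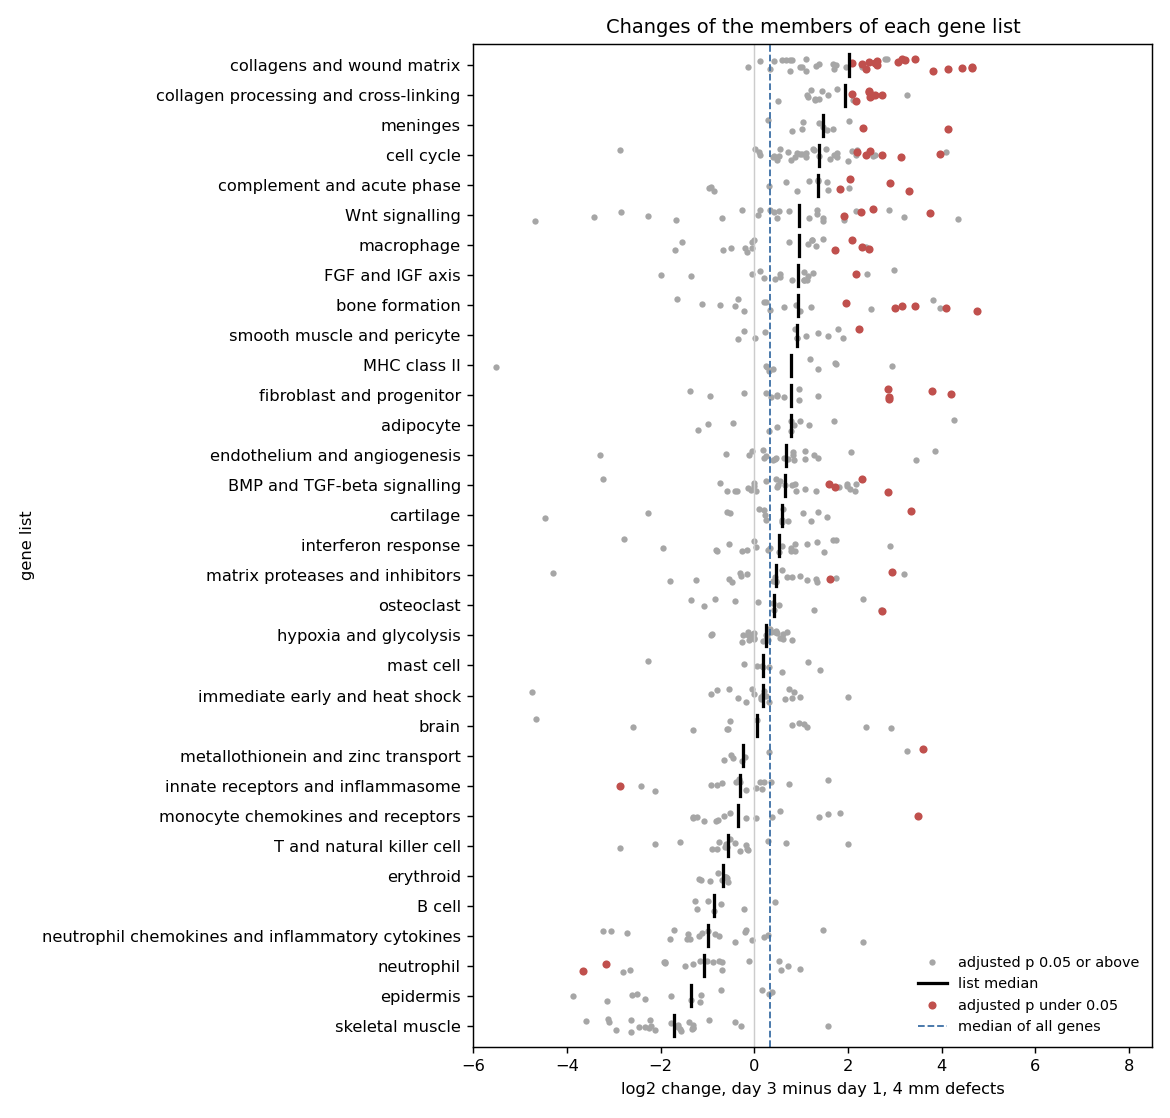
Log2 change from day 1 to day 3 in 4 mm defects of each measured gene of 33 lists, ordered by the list's median (black bar), with genes that passed in red and the median of all genes as a dashed line. Collagens and collagen processing lie at the top with medians of 2.03 and 1.93, and skeletal muscle lies at the bottom with -1.71 and no gene that passed.

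The signalling genes that passed were antagonists, binding proteins and receptors. Of 28 Wnt genes 4 rose and 0 fell, and the median was 0.95. Sfrp1, a secreted Wnt antagonist, ranged from 0.72 to 1.90 with a median of 1.38 at day 3, against -1.43, -1.29 and -0.78 at day 1, and its change was 2.53 ± 0.43 (SE; adjusted p = 5.21e-05). It stood above its usual level on every day 3 array and below it on every day 1 array. Sfrp2, of the same family, changed by 2.27 ± 0.53, Dkk3, a member of the Dickkopf family, by 3.74 ± 0.76 and the receptor Fzd1 by 1.91 ± 0.56 (SE). The adjusted p of Dkk3 was 0.149 without the day 1 array of rat 13, where it lay at the floor, and that of Sfrp2 was 0.0613 without rat 18 of day 1. Fzd1 (adjusted p = 0.0473) ended without any of the 3 day 1 arrays, with values of 0.544, 0.098 and 0.0677 without rats 13, 17 and 18.

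Of 31 genes of BMP and TGF-beta signalling 4 rose, and the median was 0.66. Fstl1, a secreted follistatin-like protein, ranged from -0.59 to 0.28 with a median of -0.17 at day 3, against -2.65, -2.36 and -2.44 at day 1, a change of 2.30 ± 0.44 (SE; adjusted p = 0.000356). Ltbp3, which holds latent TGF-beta in the matrix, changed by 1.73 ± 0.42 and Bambi, a pseudoreceptor of the pathway, by 1.59 ± 0.40 (SE). Without the day 1 array of rat 13 their adjusted p was 0.199 and 0.379, and that of Bambi was 0.0599 without rat 17. Ltbp3 had an adjusted p of 0.174 with the mean of its probes. Grem1, a BMP antagonist, was at the floor on 1 day 3 array and 2 day 1 arrays (adjusted p = 0.0484), and its adjusted p was 0.637 without rat 13 of day 1 and 0.432 without rat 18. Of 18 genes of the FGF and IGF axis 1 rose, Igfbp6, a binding protein for insulin-like growth factors, by 2.17 ± 0.60 (SE; adjusted p = 0.0309), which was 0.389 without rat 13 of day 1, 0.0678 without rat 17 and 0.0663 without rat 18.

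Calls with an adjusted p close to the threshold also ended when a single day 3 array was left out. This held for Fzd1 with each of the 8 arrays (adjusted p from 0.0523 to 0.0791), for Grem1 with any but rat 22 (0.0506 to 0.0977) and for C1s, described with the complement genes, with any but rat 13 (0.0534 to 0.0706). Ibsp ended without rat 13, 14, 17, 18 or 21 (0.0554 to 0.112), Acan without rat 14, 17, 18, 21 or 22 (0.0543 to 0.0759) and the complement gene Cfi without rat 13, 14, 16, 17 or 19 (0.0561 to 0.0862). Pth1r ended without rat 14, 18 or 21 (0.056 to 0.0878), and Igfbp6 without rat 19 or 22 (0.0557 and 0.0538). No other rise among the named genes ended with the loss of 1 day 3 array.

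Cell cycle genes were higher at day 3 almost throughout the list, though few passed. Of 39 measured genes 38 had a positive change, 21 had separate groups, 6 rose (15.4%) and 0 fell, and the median was 1.37, or 1.05 above that of all genes. The 6 act in mitosis. Ccnb1 (cyclin B1), which drives entry into mitosis, ranged from 0.48 to 1.60 with a median of 0.79 at day 3, against -1.59, -2.66 and -2.48 at day 1. Plk1, a kinase of the spindle poles, ranged from 0.60 to 2.05 with a median of 1.13 at day 3, against -0.85, -1.97 and -1.93 at day 1. Cdc20, which activates the ligase that ends metaphase, ranged from 0.23 to 1.28 with a median of 0.66 at day 3, against -0.96, -1.76 and -1.82 at day 1. All day 3 arrays thus lay above the usual level of these genes and all day 1 arrays below it. The changes were 3.12 ± 0.55 for Ccnb1 (SE; adjusted p = 9.29e-05), 2.72 ± 0.69 for Plk1 (0.0141) and 2.19 ± 0.51 for Cdc20 (0.00499). The microtubule bundler Prc1 changed by 3.97 ± 1.04, with rat 18 of day 1 at the floor, the kinesin Kif20a by 2.47 ± 0.63 and the checkpoint kinase Bub1 by 2.38 ± 0.63 (SE; adjusted p = 0.0177, 0.0135 and 0.0191).

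The number of cell cycle calls depended on the arrays and settings. Without rat 18 of day 1 it was 1, Ccnb1, with an adjusted p of 0.114 for Plk1, 0.0647 for Cdc20, 0.558 for Prc1, 0.116 for Kif20a and 0.123 for Bub1. Without rat 13 of day 1 that of Bub1 was 0.167, and without rat 17 those of Plk1 and Kif20a were 0.0843 and 0.0827. With quantile normalization 11 genes passed, and 14 with values under 0.25 raised. The proliferation marker Mki67 ranged from -0.04 to 0.85 at day 3, against -1.16, -1.30 and -1.06 at day 1, and its change of 1.37 ± 0.50 did not pass (SE; adjusted p = 0.176).

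Promoters of 4 of these genes are printed because mitotic genes of mammals are known to share a CCAAT box, bound by the factor NF-Y, and the element TTTGAA, bound by repressor complexes in resting cells. The sequences are the 120 bases before the start in RefSeq's GRCr8 annotation, read 5′ to 3′ on the gene's strand. Capitals mark CCAAT and TTTGAA.
Ccnb1 (chr2:33655226-33655345, minus strand): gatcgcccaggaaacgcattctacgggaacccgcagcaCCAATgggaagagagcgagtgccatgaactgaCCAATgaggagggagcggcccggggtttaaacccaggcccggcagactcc
Plk1 (chr1:186147538-186147657, plus strand): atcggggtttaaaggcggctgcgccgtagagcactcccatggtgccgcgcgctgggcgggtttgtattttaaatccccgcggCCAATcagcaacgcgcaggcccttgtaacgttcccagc
Cdc20 (chr5:137255800-137255919, minus strand): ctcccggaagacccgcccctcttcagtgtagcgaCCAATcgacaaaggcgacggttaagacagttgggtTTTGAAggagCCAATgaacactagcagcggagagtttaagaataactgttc
Prc1 (chr1:143659361-143659480, plus strand): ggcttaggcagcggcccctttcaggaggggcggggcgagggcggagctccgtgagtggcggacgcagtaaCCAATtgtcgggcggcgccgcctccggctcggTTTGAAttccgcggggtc
Within 250 bases before the start, on either strand, CCAAT was found in 22 of the 29 cell cycle promoters with a RefSeq entry (75.9%) and in 5 of the 6 that rose, while 34.3% of 27457 promoters of the same length hold it. TTTGAA was found in 10 of the 29 (34.5%) and 2 of the 6, against 16% of all promoters. These letters are a description and do not show that a factor was bound.

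Macrophage genes rose in 4 of 20 cases (20%), with 0 falls and a median of 0.95. The list was split in sign, with 11 positive and 9 negative changes. Among the negative ones were those of Msr1 (-0.67), Cd36 (-0.50), Apoe (-0.19) and Lyz2 (-0.17). Adgre1, a surface marker of macrophages in rodents, ranged from -0.28 to 0.74 with a median of 0.15 at day 3, against -2.40, -1.75 and -2.73 at day 1, a change of 2.45 ± 0.51 (SE; adjusted p = 0.00132). C1qa and C1qc, chains of the first complement component made by macrophages, changed by 2.29 ± 0.58 and 2.08 ± 0.51 (SE), and Trem2, a receptor for lipids and debris, by 1.72 ± 0.47. Of the 4 genes only Adgre1 kept its call without each array. The adjusted p was 0.138 for C1qa, 0.0506 for C1qc and 0.427 for Trem2 without rat 13 of day 1, and 0.065, 0.0924 and 0.155 without rat 18. Cd68 and Cd163 had separate groups but did not pass, with changes of 1.31 ± 0.47 and 1.23 ± 0.87 (SE; adjusted p = 0.164 and 0.696). Arg1 had a change of -1.69 and Nos2 of -1.55, 2 enzymes that use arginine, and neither passed. After each array was centred Arg1 passed as lower, with -2.04 (adjusted p = 0.00195), so that the list then held 1 fall. Cd68 passed after quantile normalization (adjusted p = 0.0496).

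Complement and acute phase genes rose in 4 of 16 cases (25%), with 0 falls and a median of 1.36. Lbp, the protein that binds bacterial lipopolysaccharide, ranged from -1.81 to 1.69 with a median of 0.65 at day 3, against -2.20, -3.41 and -2.92 at day 1, a change of 3.31 ± 0.58 (SE; adjusted p = 8.48e-05). C6, part of the membrane attack complex, changed by 2.90 ± 0.69, C1s, a protease of the first component, by 2.04 ± 0.59, and Cfi, which inactivates C3b, by 1.83 ± 0.53 (SE). Without rat 13 of day 1 their adjusted p was 0.0596, 0.406 and 0.243, which left Lbp alone. C1s and Cfi also ended without rat 17 of day 1 (0.134 and 0.166) or rat 18 (0.0647 and 0.0851). Of 16 monocyte chemokines and receptors 1 rose, Cxcl13, a chemokine that attracts B cells, by 3.5 ± 0.78 (SE; adjusted p = 0.00287, and 0.0699 without rat 13 of day 1). Of 8 genes of metallothioneins and zinc transport 1 rose, Mt3, with 1 day 1 array at the floor (adjusted p = 0.00705, 0.079 without rat 13 of day 1, 0.114 without rat 18 and 0.295 after quantile normalization).

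The 8 genes that fell were high on the day 1 arrays. Hdc, the enzyme that makes histamine, ranged from -0.11 to 1.90 with a median of 0.71 at day 3, against 2.94, 4.34 and 5.81 at day 1. Its change was -3.66 ± 0.75 (SE; adjusted p = 0.000899). S100a9, one chain of the calprotectin that fills the neutrophil cytosol, ranged from -1.46 to 2.59 with a median of 0.48 at day 3, against 2.78, 3.69 and 3.76 at day 1. Its change was -3.17 ± 0.69 (SE; adjusted p = 0.00221), and the groups did not overlap. Its partner S100a8 ranged from -0.73 to 2.56 at day 3, against 2.97, 3.35 and 3.92 at day 1. The groups of S100a8 did not overlap either, and on neither day was its range wider than that of S100a9. Its change of -2.81 ± 1.81 nevertheless did not pass (SE; adjusted p = 0.641). This SE, larger than that of S100a9, rests on the spread pooled over all groups of day and width. It does not show that S100a8 varied more on the arrays compared here. Ltb (lymphotoxin beta), a cytokine of lymphocytes, fell by 2.27 on the log2 scale, and Aqp9, a channel for water and glycerol in leukocytes, fell by 2.16. Nlrp12, a sensor protein of myeloid cells, fell by 2.88, Stfa2l3, a cysteine protease inhibitor of the stefin A family, by 3.33, and Chi3l1, a chitinase-like protein of neutrophils and macrophages, by 1.93. LOC100909803 fell by 1.62 and has no name in the annotation used.

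Of the 8 genes that fell, only S100a9 kept its call without each of the 11 arrays. Without rat 18 of day 1 the adjusted p was 0.0657 for Hdc, 0.107 for Ltb, 0.194 for Aqp9, 0.159 for Chi3l1, 0.352 for LOC100909803, 0.125 for Stfa2l3 and 0.297 for Nlrp12. Without rat 17 of day 1 it was 0.0904 for Aqp9, 0.16 for Chi3l1, 0.136 for LOC100909803, 0.218 for Stfa2l3 and 0.111 for Nlrp12. Without rat 13 of day 1 Nlrp12 stood at 0.0618. Without rat 17, 19 or 22 of day 3 the adjusted p ran from 0.0567 to 0.071 for Stfa2l3 and from 0.054 to 0.0972 for Nlrp12. After quantile normalization Hdc and Chi3l1 stood at 0.0515 and 0.0573.

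The neutrophil list as a whole had a median of -1.08, or -1.41 relative to all genes, and 16 of its 20 measured genes had a negative change. Of the 20, 2 fell (Hdc and S100a9) and 0 rose. Padi4, an enzyme of neutrophil nuclei, had a change of -2.65 and passed after centring (-2.99, adjusted p = 0.0321). The receptors Cxcr2 and Csf3r had changes of -1.91 each and did not pass. Azurophil granule genes, which are made in the marrow, did not pass either, and their changes differed in sign. Mpo changed by -0.75 ± 1.86 and Elane by -1.32 ± 1.36 (SE), but Ctsg by 0.97 and Prtn3 by 0.53. Lcn2 and Cxcr1 also had positive changes, of 0.73 and 0.56, and did not pass. Of 21 neutrophil chemokines and inflammatory cytokines 17 had a negative change, with a median of -1.0, and none passed in limma, with 1 lower at an unadjusted p under 0.05. Il1b ranged from -1.23 to 0.84 at day 3, against 0.63, 1.92 and 1.59 at day 1, a change of -1.37 ± 0.58 (SE; adjusted p = 0.305). After centring it passed as lower, with -1.71 (adjusted p = 0.0257), the list's 1 fall under that scaling. Cxcl2, a neutrophil chemokine, was above its usual level on all 11 arrays, from 1.16 to 5.23 at day 3, against 3.03, 5.56 and 5.00 at day 1. Il6 changed by -0.19 ± 0.76 (SE). Of 17 innate receptors and inflammasome genes 1 fell, Nlrp12, and the median was -0.30, which was -0.65 after centring and -0.68 without the day 1 array of rat 13. Clec4e, a lectin receptor of macrophages and neutrophils, had a change of -2.42 (adjusted p = 0.0516) and passed as lower with quantile normalization (-3.01, adjusted p = 0.00856) and after centring (-2.77, adjusted p = 0.00792).

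Lists of further immune cells and of stress gave no call. In limma none of 18 genes of T and natural killer cells passed (median -0.56), nor any of 7 of B cells (-0.86), 9 of mast cells (0.19), 23 of the interferon response (0.53) or 10 of MHC class II (0.79). At an unadjusted p under 0.05 these lists held 2, 0, 0, 1 and 3 genes, which by themselves do not show a share above that of all genes. None of 21 immediate early and heat shock genes and none of 28 genes of hypoxia and glycolysis passed, with 2 and 0 at an unadjusted p under 0.05. The hypoxia list's median of 0.24 turned to -0.11 after centring, and Vegfa, the growth factor of vessels, stood far above its usual level at both days, from 1.61 to 4.55 at day 3, against 1.35, 2.87 and 2.83 at day 1. Its change was -0.01 ± 0.47 (SE). The medians of the mast cell, immediate early and brain lists also changed sign with scaling.

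Markers of tissues around the defect are given as measured. All but 1 of the 26 skeletal muscle genes had a negative change, with a median of -1.71 (-3.51 without the day 1 array of rat 13), and none passed in limma, nor at an unadjusted p under 0.05. The mean log2 value of the list ran from -2.20 to 4.90 over the day 3 arrays, against 0.31 to 6.01 over the day 1 arrays, so its spread between arrays of 1 day exceeded the difference. Acta1, the actin of skeletal muscle, was at 1.60, 7.96 and 6.68 at day 1, with the lowest value in rat 13. Of 13 epidermis genes 3 had a positive change, with a median of -1.36, none passed in limma (2 lower at an unadjusted p under 0.05), and the list's mean ran from -1.23 to 1.55 at day 3, against -1.18 to 3.63 at day 1. Krt14, a keratin of the basal layer, was at 0.09, 5.84 and 5.63 at day 1. Its change of -2.61 did not pass (adjusted p = 0.25), but without the day 1 array of rat 13 it fell by 4.49 on the log2 scale (adjusted p = 0.0275) and the median of the epidermis list was -2.83. The part of muscle and skin in the changes of other genes was not tested. Of 11 genes of the meninges 2 rose, Ogn and Crabp2, a binding protein for retinoic acid, which changed by 2.32 ± 0.53 (SE; adjusted p = 0.00423, and 0.179 without rat 13 of day 1). The mean of the meninges list ran from -2.04 to -0.55 at day 3, against -3.44 to -2.64 at day 1. None of 13 brain genes passed in limma (median 0.05, and 0 at an unadjusted p under 0.05), and Aqp4, the water channel of astrocytes, was at the floor on all 3 day 1 arrays and had a median at the floor at day 3. None of 10 erythroid genes (median -0.67) and none of 12 adipocyte genes (0.78) passed in limma, with 0 and 1 at an unadjusted p under 0.05.

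The same interval in 8 mm defects gave 417 genes that passed (2.61%), 365 higher (2.28%) and 52 lower (0.326%). Of the 353 genes of the 4 mm defects, 234 also passed in 8 mm defects in the same direction, which is 66.29% of the 4 mm calls and 56.12% of the 8 mm calls, and 0 passed in the opposite direction. The sign was the same for 338 of the 345 genes that rose and for all 8 that fell. The 2 comparisons share no array. Spon1 changed by 4.64 ± 0.47 in 4 mm defects and 2.87 ± 0.37 in 8 mm defects (SE), and the difference of 1.78 ± 0.60 had an unadjusted p of 0.00397 that did not pass over all genes. The list of collagens and wound matrix had medians of 2.03 in 4 mm and 1.63 in 8 mm defects, and that of collagen processing 1.93 and 1.15, beside 0.33 and 0.10 for all genes. The neutrophil list had medians of -1.08 and -1.24. Some 8 mm arrays stood low as a whole, with a median log2 value of all genes of -1.17 in rat 18 and -0.55 in rat 20 of day 3. That of rat 11 of day 1 was -0.82. With array weights the median change of all genes was 0.20 in 4 mm and 0.19 in 8 mm defects. The part of these low arrays in the size of the 8 mm changes was not tested. Il1b passed in 8 mm defects, with -1.92 (adjusted p = 0.00601), and had -1.37 in 4 mm defects.

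No gene passed the test of the difference between the change in 4 mm and in 8 mm defects in limma. Of 15975 genes 361 had an unadjusted p under 0.05, a smaller share than the threshold of 0.05 itself. With array weights 16 genes passed. The smallest p-values belonged to genes whose values reached the floor in 1 of the groups. Those for a higher change in 4 mm defects included Fam221a, Or5ak24, Stxbp4 and Sult5a1. Those for a lower change were Vwa3a, Atg13, Cacna1d, Fbxw12 and Ranbp17, each at the floor on at least 1 day 3 array of 4 mm defects. Dkk3 is an example among the genes already described, with changes of 3.74 ± 0.76 in 4 mm defects and 0.26 in 8 mm defects. Sult5a1, a sulfotransferase, had the smallest p of all genes in the 4 mm comparison (adjusted p = 5.67e-14). It ranged from -1.10 to 0.42 at day 3, against -6.64, -3.95 and -6.64 at day 1, with 2 arrays at the floor. Its changes were 5.48 ± 0.49 in 4 mm and 3.14 in 8 mm defects, a difference of 2.34 ± 0.62 (SE; unadjusted p = 0.000339). A difference that misses the threshold does not show that the widths acted alike.

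**Figure D3:**
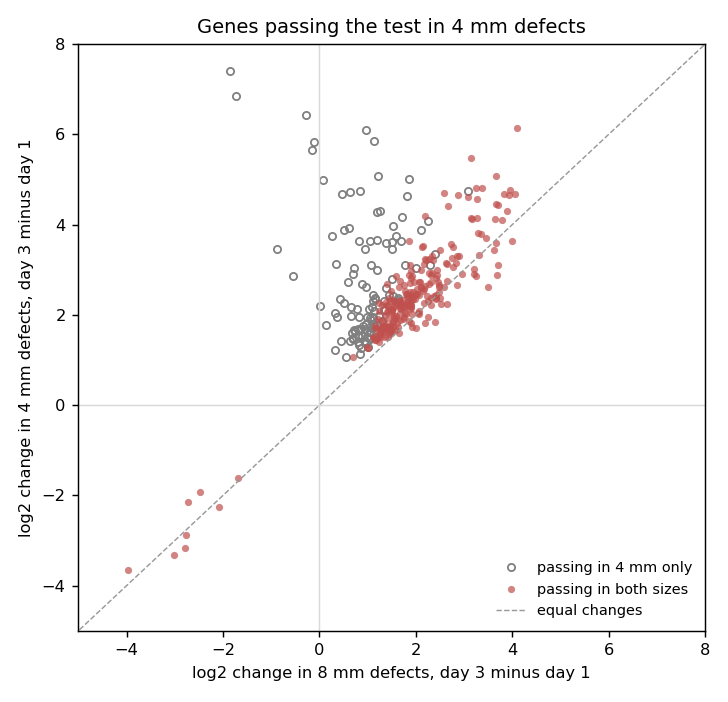
Log2 change from day 1 to day 3 in 4 mm defects (vertical axis) against that in 8 mm defects (horizontal axis) for the 353 genes that passed in 4 mm defects, filled where they also passed in 8 mm defects. All 8 genes that fell passed in both widths, and 320 of the 345 genes that rose lie above the line of equal changes, in a comparison where the 4 mm values chose the genes. The 8 mm arrays that stood low as a whole are included.

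Later days of 4 mm defects showed where day 3 lay in the course of healing. These values share the day 1 and day 3 arrays, so they are a description. The share of values at the floor was 10.04% to 10.66% on the day 5 arrays, much as at days 1 and 3, but rose later. It was 11.93% to 16.73% at day 7, 13.82% to 19.32% at day 10, 17.79% to 23.09% at day 14 and 14.13% to 22.65% at day 21. The part of this shift in the later means was not tested. Of the 345 genes that rose, 317 (91.88%) had their lowest mean of the 7 days at day 1, against 25.82% of all genes, and 281 (81.45%) had a higher mean at day 5 than at day 3, against 55.24% of all genes. The highest mean lay at day 7 for 179 of them and at day 3 for 42, against 4878 and 2010 of all 15975 genes. The share at day 3 was thus close to that of all genes. At days 1, 3 and 5 the means of Aspn were -5.52, -0.87 and 0.39, and those of Ogn were -5.39, -1.25 and 0.18. Cell cycle genes followed another course. Ccnb1 had means of -2.24, 0.88, 0.52 and -1.92 at days 1, 3, 5 and 21, and Plk1 had -1.59, 1.14, 0.64 and -3.32. All 8 genes that fell had their highest mean at day 1. Over the same 4 days the means of S100a9 were 3.41, 0.24, -2.39 and 0.07.

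**Figure D4:**
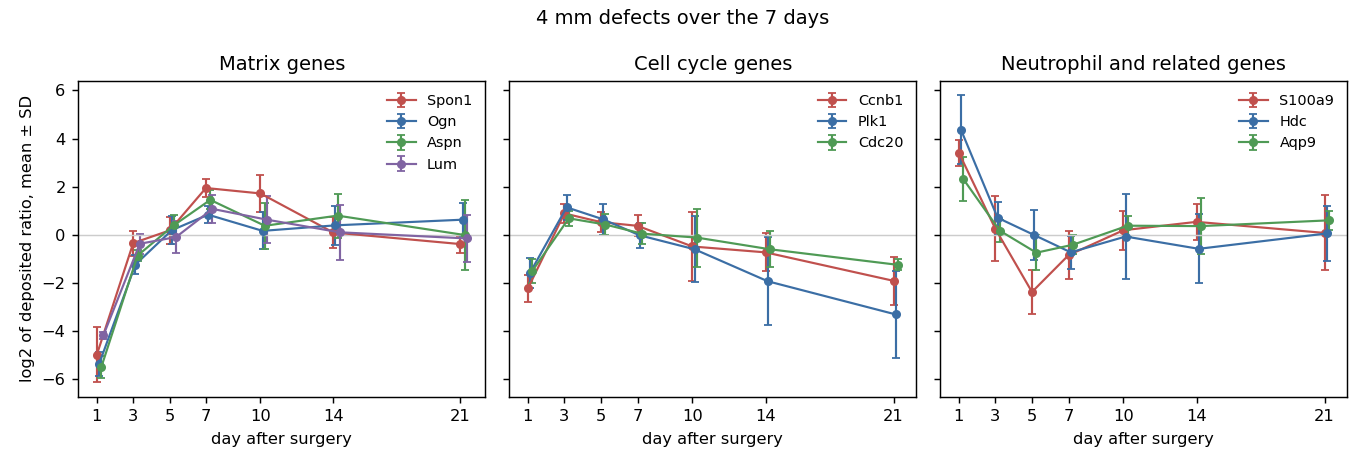
Mean log2 of the deposited ratio with SD in 4 mm defects at 7 days for matrix genes (left), cell cycle genes (middle) and neutrophil and related genes (right), over 3, 8, 11, 5, 4, 5 and 6 arrays at days 1, 3, 5, 7, 10, 14 and 21. Matrix genes climb from day 1 to day 7, cell cycle genes are highest at day 3, and S100a9, Hdc and Aqp9 are highest at day 1. From day 7 on more values of each array stood at the floor than before.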

How the data were processed

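RNA of calvarial defects was hybridised with Cy3 to 1-colour Agilent rat whole-genome arrays, per the labels' protocols. The authors deposited linear ratios. Of 41090 probes, 87.75% had a median of exactly 1 over the 93 arrays and 12.25% a lower one, and 13.42% of values stood at the floor of 0.01. What scanner, background correction and scaling made the ratios is not given in the sources used here. A single symbol was given to 20932 probes, several to 0 and none to 20158. RefSeq accessions (GRCr8) matched 17424 probes and updated 2316 symbols.

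Log2 was taken with no pseudocount. Of 15975 genes 3880 had several probes, and the probe with the widest interquartile range stood for the gene. A cell-means model of the 14 groups of day and width was fitted to all 93 arrays by lmFit and eBayes of limma 3.58.1 under R 4.3.3 (79 residual df, prior df 1.9). Tests were two-sided, with Benjamini-Hochberg adjustment over all genes and a threshold of 0.05. The script was tested on simulated data. Named were the 15 largest rises and the falls among passing genes above the floor on the 11 arrays, up to 6 passing genes a list, well-known markers, and for the difference between widths the 5 smallest p in each direction. Col5a1, Postn and the genes in step with Col1a2 were described after their values were seen. The comparison, its gene lists and markers were chosen with earlier results of these data known. No 2 arrays held identical values. Rat numbers did not pair the samples of the days. Alternatives were another scaling, floor treatment, probe rule, spread, a rat block and leaving out each array.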

Additional observations from a re-analysis of the deposited data

Results flagged for a closer look

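Of 106 values tested for 1 array standing apart among the 8 arrays of day 3, 6 did so by Dixon's test, and chance gives about 1 in 20. Pdgfrl was at -1.96 in rat 21, while the other day 3 arrays lay between -0.68 and 0.33. Cfi was at -1.75 in rat 21, against -0.25 to 0.94 on the others, and this value overlaps the day 1 arrays. Ltbp3 was at -1.21 in rat 13, against -0.63 to -0.24. Grem1 was at the floor, -6.64, in rat 22, against -2.91 to -1.18. The median log2 value of all genes was 0.19 in rat 14, against -0.07 to 0.03. The mean log2 value of the interferon response list was -1.80 in rat 18, against -0.55 to 0.39.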

How the results depend on the processing

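The comparison of day 3 with day 1 in 4 mm defects gave 353 genes as deposited, 533 with quantile normalization, 59 with the less variable genes left out, 1242 with array weights and 825 with the compared groups fitted alone. Higher genes numbered 345, and 57, 1135 and 809 with the last 3 of these settings. Lower genes numbered 8, and 33 with quantile normalization, 38 after centring, 2 with the less variable genes left out, 19 with values under 0.25 raised, 107 with array weights and 16 with the compared groups alone. Leaving out 1 of the 11 arrays of 4 mm defects gave 142 to 348 genes, 129 to 344 higher and 1 to 13 lower. The difference from 8 mm defects then gave 0 genes each time, and 16 with array weights. No 8 mm array was left out, so how far that 0 depends on single 8 mm arrays was not tested. The 8 mm comparison gave 417 genes, 782 with quantile normalization, 703 after centring, 83 with the less variable genes left out, 1392 with array weights and 37 with the compared groups alone. With the rat number as a replicate block 215 genes passed, 209 of them higher. Deviations of arrays with the same number correlated at 0.0379, 0.00841 and -0.0021, so the numbers were not treated as pairs. No call of the 353 changed sign in any setting. Of the 71 named genes 18 kept their call wherever they were tested, among them Cthrc1, Spon1, Lum, Ccnb1, Adgre1 and S100a9, while 29 lost it without the day 1 array of rat 13, 16 without rat 17, 26 without rat 18 and 25 with values under 0.25 raised. With quantile normalization 7 lost it, after centring 4, with the mean of all probes 3, with the compared groups alone 8, with the block 16, and 11 of the 36 still tested with the less variable genes left out. With 3 arrays at day 1, each array decides many calls, and differences of values at the floor have no size.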

Other observations

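Glutathione transferases, which couple glutathione to reactive compounds, were a family with several rises outside the lists above, and they were picked after their values were seen. Of 23 measured Gst and Mgst genes 7 rose and 0 fell, while 2.16% of all genes rose and 0.0501% fell. Of the 23, 20 changes were positive, and the median was 1.04, beside 0.33 for all genes. Mgst3 averaged -0.16 ± 0.31 at day 3 (SD, n = 8) and -2.36 ± 0.94 at day 1 (SD, n = 3), a change of 2.19 ± 0.42 (SE; limma adjusted p = 0.000379). Gsta1 changed by 2.23 ± 0.47, Gsta3 by 2.08 ± 0.43, Gstm2 by 1.75 ± 0.38, Gstp1 by 1.79 ± 0.43, Gstm5 by 1.67 ± 0.37 and Gstk1 by 1.62 ± 0.45 (SE). The groups of all 7 were separate. Whether their calls held without single arrays or under another scaling was not tested. In 8 mm defects 5 of the 7 passed, with changes of 1.89 for Mgst3, 1.3 for Gsta1, 1.23 for Gsta3, 1.47 for Gstm2 and 1.5 for Gstk1. Gstp1 (1.11, adjusted p = 0.065) and Gstm5 (0.72, adjusted p = 0.274) did not.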
